A study of Ictidomys tridecemlineatus with 15 samples.

Results

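Müller glia of the developing 13-lined ground squirrel (13LGS) retina are described here from the cells that the deposited cell table annotates as MG. The annotation held 1287 Müller glia among 53394 cells of 12 annotated cell types. Of these, 1285 came from 5 libraries: 94 cells in 1 of the 2 libraries at postnatal day 8 (P8a), 363 and 284 cells in the 2 libraries at P12 (P12a and P12b), 350 cells at P17 and 194 cells at P21. The other 2 annotated cells came from P1, whose library suffixes could not be tied to a sample of the labels, and they are not analysed here.

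Müller glia are the main glial cells of the vertebrate retina. Their processes span the retina from its vitreal to its scleral surface, and they supply neurons with metabolites, take up glutamate and potassium, and recycle chromophore for cones. They are made late in retinal development by the same primary progenitors that give rise to the neurons, and they keep many genes of these progenitors active. In fish they divide and replace lost neurons, which mammalian Müller glia do not do readily.

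Whole retinas of captive 13LGS, with no treatment named in the labels, were profiled by single-cell RNA-Seq between embryonic day 18 (E18) and P21, with birth at E27. The 14 libraries used here held 46474 cells at 9 time points, 7 libraries before birth and 7 after birth, with library medians of 1548 to 11868 unique molecular identifiers (UMIs, each marking a captured mRNA molecule) per cell. How many animals made up a library, and which retinas were methanol-fixed and which flash-frozen, is not given per library in the sources used here. Only P8 and P12 had 2 postnatal libraries, so that each other postnatal age rests on 1 library, and age and library cannot be told apart there. The gene list as held here carries no matrix row numbers, so genes are given by their row in the deposited matrix, counted from 1, and the marker genes of Müller glia were not read by name.

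How well the annotation separates the cells was described by comparing each cell with the mean profile of every cell type in the other libraries. The 2000 rows that varied most between types were used. The annotation was built from the same counts, so this is no independent check of it. Müller glia were nearest to the Müller glia of other libraries in 1193 of 1285 cells (92.8%, 95% exact binomial interval 91.3 to 94.2%). The share was 96.8% at P8a, 97.0% at P12a, 100% at P17 and 99.5% at P21, and it was lower, 72.9%, at P12b. The intervals of this paragraph treat cells as independent and leave out the spread between libraries. Of the 92 remaining cells, 79 were nearest to late-stage primary progenitors, 9 to photoreceptor precursors and 4 to late-stage neurogenic progenitors, and 0 were nearest to amacrine, bipolar, horizontal or ganglion cells, cones or rods. On the progenitor side, 230 of 482 late-stage primary progenitors of P8a, P12a and P12b (47.7%, 43.2 to 52.3%) were nearest to their own type and 149 were nearest to Müller glia. The progenitor profile pooled counts of younger libraries too, with 42 cells of E26a and 1374 cells of P4. The Müller glia profile came from P8 to P21 only. A less sharp boundary and the age of the profiles cannot be told apart here. The cell barcodes of 10 Müller glia (0.778%) also occurred in another library, and no barcode was carried by 2 Müller glia.

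Müller glia were first annotated in number at P8 and were most frequent in P12a. They made up 0 of 3908 cells at P4 and 0 of 1369 cells at P8b, where the 95% Wilson intervals reach up to 0.0982% and 0.280%. At P8a they were 3.12% of cells (95% Wilson interval 2.56 to 3.80%). The 2 libraries of P8 therefore differed by more than counting error, and they also differed in late-stage primary progenitors, which were 11.02% of P8a and 3.65% of P8b. The share was 8.51% (7.71 to 9.39%) at P12a, 7.18% (6.42 to 8.03%) at P12b, 6.63% (5.99 to 7.34%) at P17 and 3.84% (3.34 to 4.40%) at P21. The P21 library, in which Müller glia were less frequent than at P12 and P17, held 30.4% cones, against 7.67 to 13.4% in the libraries of P12 and P17. The shares of 1 library depend on each other, and their intervals and upper limits reflect counting error alone.

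Late-stage primary progenitors gave way to Müller glia over the same weeks. Among Müller glia and late-stage primary progenitors together, Müller glia were 0 of 1374 cells at P4, 22.1% of 426 cells at P8a and 0 of 50 cells at P8b. At P12 they were 81.8% of 444 cells in P12a and 80.5% of 353 cells in P12b, so the 2 libraries of this age were alike. They were 98.0% of 357 cells at P17 and 194 of 194 cells at P21. Over the 7 postnatal libraries this share rose with age, with Spearman's rho of 0.96 and Pearson's r of 0.89 (two-sided exact permutation tests, p = 0.00317 and p = 0.00159, Benjamini-Hochberg adjusted p = 0.00317 for both). Without P4 and P21, the 2 libraries farthest from the median age, rho was 0.95 and r was 0.90 over 5 libraries (exact permutation p = 0.0667 and p = 0.0333, adjusted p = 0.0667 for both). With the tied ages of P8 and P12 these p-values are the smallest possible, so this repeat could not pass the threshold of 0.05. With libraries averaged per time point, rho was 1 and r was 0.93 (exact permutation p = 0.0167 and p = 0.025, adjusted p = 0.025 for both). As a share of all cells, Müller glia were not shown to rise with age over the 7 libraries (rho of 0.63, r of 0.54, adjusted exact permutation p = 0.221).

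**Figure D1:**
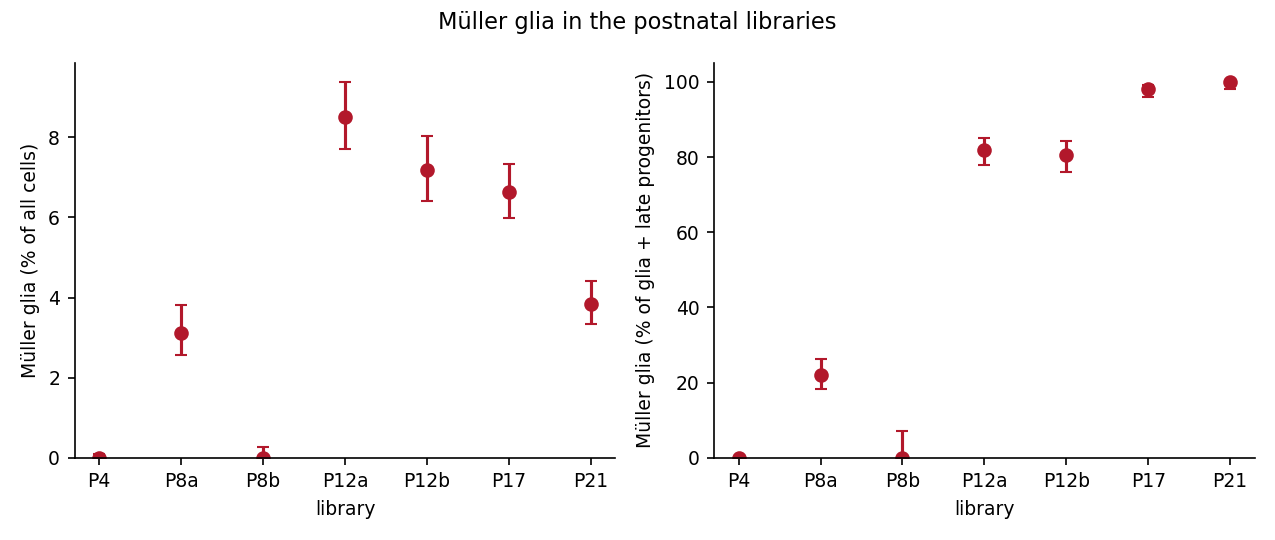
Share of Müller glia in each postnatal library, in percent of all cells (left) and in percent of Müller glia plus late-stage primary progenitors (right), with 95% Wilson intervals as bars. P4 and P8b held 0 Müller glia, the share of all cells was highest at P12a (8.51%), and the share among both types went from 22.1% at P8a to 100% at P21.

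Müller glia carried more UMIs per cell than bipolar cells in each library, a difference that 5 libraries cannot bring under the threshold of 0.05. Median UMIs per Müller glial cell were 2946.5 at P8a, 2671 at P12a, 5197.5 at P12b, 3948 at P17 and 2359.5 at P21. P12b was thus the deepest library for these cells, and P21 the shallowest. The log2 ratio of medians to bipolar cells was 0.55 ± 0.19 (SD, n = 5 libraries), positive in 5 of 5 libraries, with an exact sign-flip permutation p of 0.0625, the smallest that 5 libraries allow (adjusted p = 0.188 over 3 classes). The ratio to amacrine cells was 0.33 ± 0.23 (4 of 5 libraries, exact permutation p = 0.125, adjusted p = 0.188) and that to cones was 0.07 ± 0.26 (2 of 5 libraries, exact permutation p = 0.5). With each cell thinned to 1000 UMIs, the median Müller glial cell showed 614 to 654.5 genes across libraries, against 639 to 714 in amacrine cells, 716 to 745 in ganglion cells and 587.5 to 611 in late-stage primary progenitors. In each of the 5 libraries the thinned Müller glia therefore showed fewer genes than the amacrine and ganglion cells, while their unthinned medians were 1175.5 to 2079.5 genes. The 10 most abundant rows took between 15.8% (P8a) and 22.6% (P21) of the UMIs of Müller glia.

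To describe which rows set Müller glia apart, the summed counts of Müller glia in each library were compared with those of amacrine cells, bipolar cells, cones and ganglion cells of the same library. CPM are UMIs per 1000000 UMIs of a sum. A row was called glia-high when CPM + 10 was at least 4-fold above that of the highest of the 4 neuron classes in each of the 5 libraries. This held for 67 of 22042 rows (0.304%), and the reverse, at least 4-fold below each of the 4 neuron classes in each library, for 3 of 31122 rows (0.00964%). Since the annotation was built from the same counts, these rows describe the cells and are no test. On the log2 scale, the value of the lowest library was 2.04 for the last row inside the threshold and 1.997 for the first row outside it. The glia-high rows ranged from 68.7 to 10172 CPM in the mean over libraries, with a median of 242 CPM, and 7 of them were above 1000 CPM.

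The clearest glia-high row was row 2712. Its level in Müller glia was 302 CPM at P8a, 540 CPM at P12a, 551 CPM at P12b, 973 CPM at P17 and 794 CPM at P21, a mean of 632 ± 258 CPM (SD, n = 5). In the 4 neuron classes it stayed between 0 and 27.4 CPM, a gap that the choice of the row fixes. Some types outside that choice carried more of it, and others did not. Photoreceptor precursors held 16.9 to 80.4 CPM in P8a, P12a and P12b, and late-stage neurogenic progenitors held 29.4 to 56.5 CPM in P8a, P12a, P12b and P17. In the libraries with Müller glia, horizontal cells held 0 to 8.66 CPM and rods 0 to 6.10 CPM. Thinned to 1000 UMIs, 25.8% of Müller glia at P8a and 56.7% at P17 carried a UMI of this row, against 0.191 to 0.426% of amacrine cells, 0.717 to 2.10% of bipolar cells, 0 to 1.01% of cones and 0 to 0.870% of ganglion cells across libraries, measured in the same way. The unthinned shares in Müller glia were 51.1% at P8a and 90.3% at P17. Late-stage primary progenitors also carried the row, at 203 CPM at P8a, 298 CPM at P12a and 244 CPM at P12b.

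The second row, row 18178, was more uneven between libraries. It stood at 211 CPM at P8a, 287 CPM at P12a, 312 CPM at P12b, 2152 CPM at P17 and 531 CPM at P21, a mean of 699 ± 821 CPM (SD, n = 5), so that the single P17 library decided the spread. The same library was also the highest one in amacrine cells (19.2 CPM against 2.52 to 7.61 CPM in the others), bipolar cells (28.3 against 1.89 to 10.4 CPM) and cones (41.1 against 0 to 10.9 CPM). Late-stage primary progenitors held 33.9 CPM at P8a, 80.9 CPM at P12a and 113 CPM at P12b, below the Müller glia of the same libraries by a wider margin than for row 2712. Thinned to 1000 UMIs, 75.0% of Müller glia at P17 carried a UMI of row 18178, against 18.4 to 20.1% at P8 and P12 and 41.8% at P21.

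The rows that were lowest in Müller glia were rows shared by the neurons. Row 15175 was at 7.03 to 15.4 CPM in Müller glia (mean 10.9 ± 3.25 CPM, SD, n = 5), against means of 137 CPM in amacrine cells, 672 CPM in bipolar cells, 356 CPM in cones and 117 CPM in ganglion cells. Row 25837 was at 14.1 to 57.5 CPM in Müller glia (27.2 ± 17.9 CPM), against 484, 895, 444 and 194 CPM in the same 4 classes. In both rows late-stage primary progenitors were also below the neuron classes, at 5.80 to 15.3 CPM for row 15175 and 10.1 to 46.4 CPM for row 25837.

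**Figure D2:**
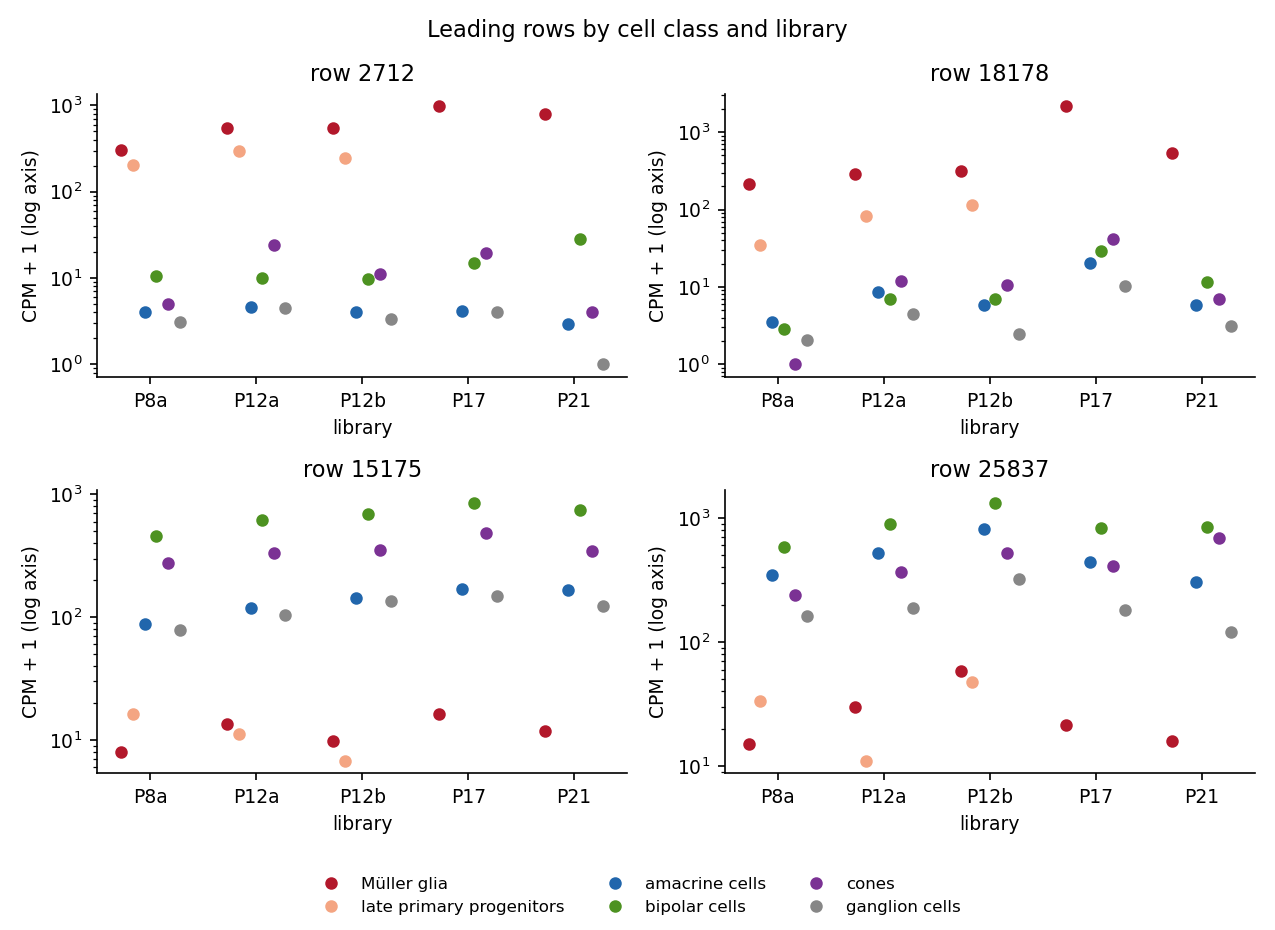
CPM + 1 on a log axis for the 2 rows that stood farthest above (rows 2712 and 18178) and farthest below (rows 15175 and 25837) all neuron classes, with 1 point per cell class and library. Müller glia reached 302 to 973 CPM for row 2712, where the neuron classes stayed at or under 27.4 CPM, and late-stage primary progenitors of P8a, P12a and P12b lay close to Müller glia in rows 2712, 15175 and 25837.

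Late-stage primary progenitors were more like Müller glia than the amacrine, bipolar, horizontal and ganglion cells and cones of the same libraries were, and other types were not compared in this way. Within P8a, P12a and P12b, the Pearson correlation of their log CPM profiles with Müller glia over 10507 rows was 0.93 to 0.95, as high as the 0.85 to 0.94 between Müller glia of different libraries, which share no cells but differ in age and depth. Of the 67 glia-high rows, 60 had a lower mean in late-stage primary progenitors than in Müller glia, with a median log2 difference of -0.61 and a range of -2.17 to 0.43, but 56 differed by less than 2-fold in the mean. At least 2-fold higher levels in Müller glia in each of the 3 libraries were seen in 5 glia-high rows and in 17 rows of the whole table, and at least 2-fold lower levels in 11 rows.

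The correlation of Müller glia with the neuron classes of the same library was lower at later ages. With amacrine cells it was 0.81 at P8a, 0.78 at P12a, 0.76 at P12b, 0.73 at P17 and 0.66 at P21. With bipolar cells it went from 0.80 at P8a to 0.66 at P21, with cones from 0.80 to 0.64 and with ganglion cells from 0.70 to 0.59. The points of 1 library share its depth and its free RNA, and these correlations are across rows, which are no replicates.

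The glia-high rows together took a larger part of the median Müller glial cell at P17 and P21 than at P8a, P12a and P12b. They made up a median of 2.68% of the UMIs of a Müller glial cell at P8a (10th to 90th percentile 2.13 to 3.45%), 3.19% at P12a (2.30 to 4.14%), 2.89% at P12b (2.09 to 3.69%), 5.15% at P17 (3.97 to 6.18%) and 5.84% at P21 (4.26 to 7.20%). The medians at P17 and P21 thus lay above the 90th percentiles at P8a, P12a and P12b. A few rows weighed heavily in this share. Summed over the cells of a library, the 67 rows held 26725 CPM at P8a and 58696 CPM at P21. Row 26079 alone ranged from 5299 to 14821 CPM over the libraries, and row 11665 from 1454 to 12079 CPM. Of the 67 rows, 49 had a positive and 18 a negative slope with age. Late-stage primary progenitors had medians of 1.97% at P8a, 2.15% at P12a and 1.90% at P12b, and 7.45%, 6.06% and 3.17% of Müller glia of these libraries lay below the progenitor median. Amacrine cells, bipolar cells, cones and ganglion cells had medians of 0.0715 to 0.189%. The rows were chosen from the same 5 libraries for their level against neurons, so that the gap to the neurons is no finding. Since each library had to pass, the level at each age entered the choice, and the difference between ages is a description and no test. Without P8a 97 rows met the rule, against 69 to 76 with any other library left out. Late-stage primary progenitors played no part in the choice.

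**Figure D3:**
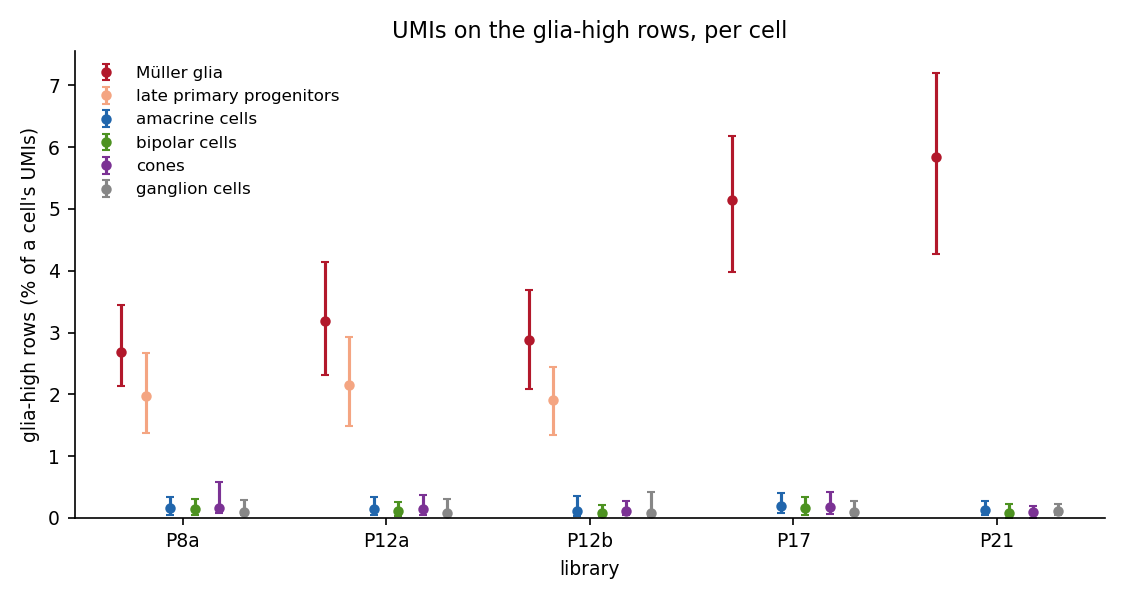
Percent of each cell's UMIs that fell on the 67 glia-high rows, by cell class and library (points, medians over cells; bars, 10th to 90th percentile). Müller glia went from medians of 2.68 to 3.19% at P8a, P12a and P12b to 5.15% at P17 and 5.84% at P21, with late-stage primary progenitors at 1.90 to 2.15% and the neuron classes at or under 0.189%.

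Neuronal transcripts in Müller glia were measured through rows at least 4-fold above Müller glia and the other neuron classes in every library, which gave 11 rows for amacrine cells, 7 for bipolar cells, 40 for cones and 47 for ganglion cells. Since the choice of rows fixes a low level in Müller glia, the gap to the neurons is no finding here either. Summed over these rows, Müller glia held 2.78 to 5.81% of the amacrine level, 2.72 to 5.44% of the bipolar level, 1.26 to 3.41% of the cone level and 2.10 to 2.54% of the ganglion cell level of the same library. The cone rows summed to 485 CPM in Müller glia at P8a, 818 CPM at P12a, 435 CPM at P12b, 474 CPM at P17 and 2168 CPM at P21. In amacrine cells of the same libraries they summed to 349, 863, 492, 567 and 1748 CPM. P21 was the highest library in both classes, and it was also the library with the most cones. In cones themselves the cone rows were highest at P21 too, at 75235 CPM against 17175 to 37493 CPM in the other libraries. Relative to the cone level, Müller glia stood at 2.88% at P21 and 3.41% at P12a. The source of these transcripts was not tested.

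How Müller glia changed between P8 and P21 was tested on the sums of the 5 libraries, with postnatal day as a number (edgeR quasi-likelihood test). Of 9588 rows tested, 209 (2.18%) changed with age at a Benjamini-Hochberg adjusted p below 0.05: 170 rose (1.77%) and 39 fell (0.407%). Each of them changed at least 2-fold over the 13 days. Among the 67 glia-high rows, which all passed the filter on low counts, 8 rose and 0 fell, 49 had a positive slope, and the median fitted change was 0.69 on the log2 scale (range -1.61 to 3.50) against 0.00 over all rows. These rows had to be high in Müller glia in each of the 5 libraries, so their counts are a description and no test. Of the 40 cone rows, 12 passed the filter and 5 of these rose, and of the 47 ganglion cell rows 20 passed and 2 rose. The part of free cone RNA in the rises was not tested. The counts rested on single libraries: 62 rows were called without P21, of which 24 were among the 209, and 98 without P8a, 123 without P12a and 136 without P17, and in the same order 3, 5, 6 and 9 glia-high rows rose. P12 against P17 and P21, 2 libraries each, gave 0 calls by edgeR, with 951 of 9806 rows at an unadjusted p under 0.05.

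Slopes were ranked among called rows with a mean of at least 20 CPM in Müller glia and time point means moving one way. The steepest rises among them were in rows that were nearly silent in Müller glia before P17. Row 9374 had 0 UMIs at P8a and at P12a, 3 UMIs at P12b (2.01 CPM), 22 UMIs at P17 (15.2 CPM) and 197 UMIs at P21 (444 CPM). Row 22500 had 0 UMIs at P8a and at P12a, 1 UMI at P12b (0.670 CPM), 42 UMIs at P17 (29.1 CPM) and 107 UMIs at P21 (241 CPM). In both rows P17 lay above the libraries of P8 and P12, and P21 lay far above P17. Against the level that 3 UMIs would give at P8a, and before scaling of the sums, P21 was at least 40.3-fold higher for row 9374 and at least 21.9-fold higher for row 22500. The fitted slopes were 1.02 (SE 0.07) and 0.89 (SE 0.07) log2 units per day (edgeR adjusted p = 3.77e-05 and 5.82e-05), and they depend on how counts of 0 are treated. Without P17 or without P21 neither row held enough counts to be tested, and neither was a glia-high row.

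By the same rule, the steepest falls were in rows that were present at P8 and P12. Row 4874 was at 108 CPM at P8a, 89.4 CPM at P12a, 64.9 CPM at P12b, 9.69 CPM at P17 and 0 at P21. Row 9022 was at 64.9, 39.4, 41.5, 11.1 and 0 CPM in the same order. The libraries of P8 and P12 lay above P17 and P21 without overlap in both rows. Against the level that 3 UMIs would give at P21, P8a was at least 16.3-fold higher for row 4874 and at least 9.77-fold higher for row 9022. The slopes were -0.44 (SE 0.08) and -0.35 (SE 0.07) log2 units per day (edgeR adjusted p = 0.0126 and 0.0193). Without P17 or without P21 the adjusted p of row 4874 was 0.0602 and 0.0512, and that of row 9022 was 0.0657 and 0.0894. The 2 leading glia-high rows did not pass the test against age: row 2712 had a slope of 0.11 (SE 0.04, edgeR adjusted p = 0.152) and row 18178 a slope of 0.23 (SE 0.08, adjusted p = 0.190), and row 18178 passed it without P21 (0.39, adjusted p = 0.00867).

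Whether age slopes differed between Müller glia and neurons of the same retinas was asked by testing the difference of the age slopes, with the library as a block. A library effect that multiplies both classes by the same factor cancels in this fit. Free RNA added in the same amount to both classes does not cancel, and its part was not tested. A difference of slopes can come from either class. Against amacrine cells, the slope differed in 532 of 14186 rows (3.75%): it was higher in Müller glia in 363 (2.56%) and lower in 169 (1.19%). Of the 67 glia-high rows, 29 had a higher and 2 a lower slope in Müller glia, and the median difference over the 13 days was 1.58 on the log2 scale against -0.03 over all rows. The glia-high rows were chosen by their ratio to amacrine cells and the other neuron classes in the same 5 libraries. Their counts therefore describe these rows and are no test against the share over all rows. For the cone rows, 27 passed the filter and 0 had a higher slope in Müller glia than in amacrine cells by edgeR. Leaving out P21 left 275 rows and 16 glia-high rows with a higher slope, leaving out P8a left 511 and 15, and thinning all sums to the smallest left 136 and 10.

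Row 28988 showed the difference from amacrine cells most plainly. In Müller glia it went from 0 UMIs at P8a to 18.4 CPM at P12a, 11.4 CPM at P12b, 267 CPM at P17 and 2828 CPM at P21, where it had 1217 UMIs. In amacrine cells it was at 2.34, 3.79, 0.451, 3.86 and 7.90 CPM in the same libraries. From P12 on, Müller glia lay above amacrine cells in each library, and P21 was at least 249-fold above the level of 3 UMIs at P8a before scaling of the sums. The difference of slopes was 0.63 (SE 0.06) log2 units per day (edgeR adjusted p = 4.42e-11) and passed the test without each of the 5 libraries in turn. Among called rows with a mean of at least 20 CPM in Müller glia, row 9374 had the steepest difference. It was 1.12 (SE 0.10, edgeR adjusted p = 2.44e-11), with 1.68 to 6.05 CPM in amacrine cells, and 0.47 without P21 (adjusted p = 0.257).

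In the opposite direction, row 25907 was at 125 CPM in Müller glia at P8a and at 10.3 to 13.9 CPM in the 4 later libraries, while in amacrine cells it was at 4.52 to 7.91 CPM at P8 and P12, 35.7 CPM at P17 and 149 CPM at P21. The order of the 2 classes was thus turned between P8a and P21. The difference of slopes was -0.60 (SE 0.04, edgeR adjusted p = 2.53e-13), while the slope in Müller glia alone, -0.29, did not pass the test (adjusted p = 0.138). Row 22020 was at 180 CPM in Müller glia at P8a, at 2.85 to 9.21 CPM at P12 and P17 and at 0 at P21, and in amacrine cells at 47.2 CPM at P8a and 14.5 to 22.1 CPM later, with a difference of -0.57 (SE 0.09, adjusted p = 1.24e-05). This call rested on P8a: without it, the difference was -0.09 (adjusted p = 0.833). In Müller glia alone row 22020 did not pass the filter on low counts, so its slope there was not tested.

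**Figure D4:**
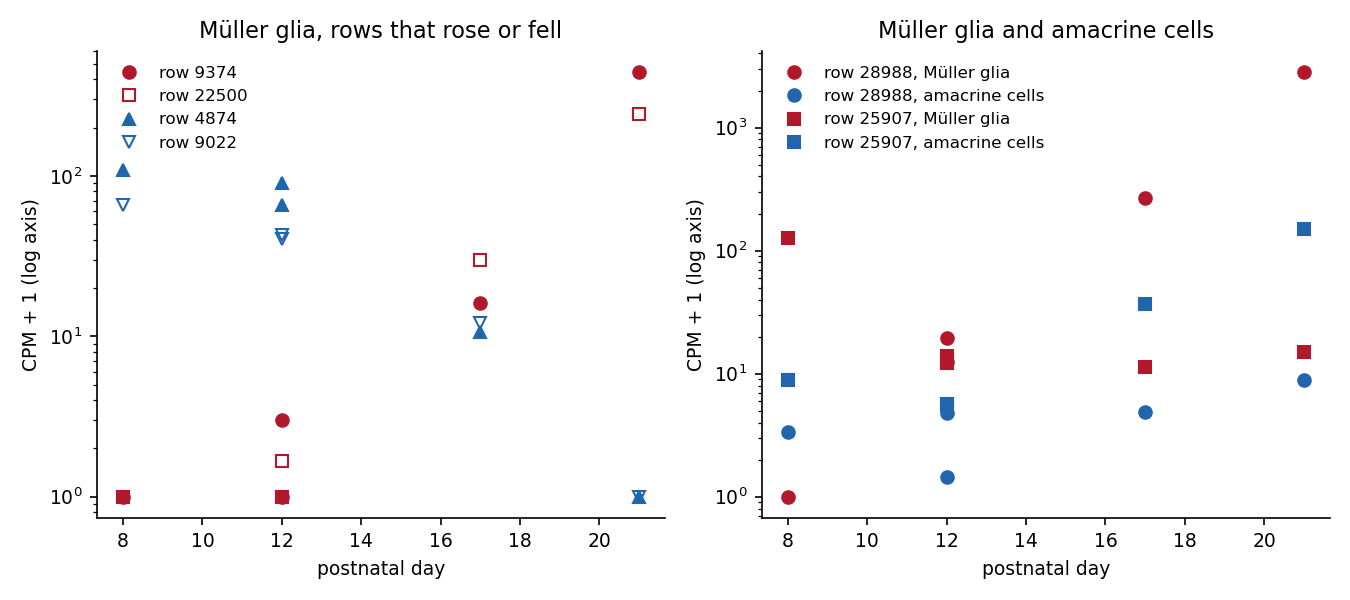
CPM + 1 on a log axis against postnatal day, with 1 point per library. Left, the rows with the steepest rises (9374 and 22500) and falls (4874 and 9022) in Müller glia. They were picked among called rows with a mean of at least 20 CPM and time point means moving one way. Right, rows 28988 and 25907 in Müller glia and in amacrine cells. Row 28988 reached 2828 CPM in Müller glia at P21 and 7.90 CPM in amacrine cells.

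Against bipolar cells, the slope differed in 652 of 12393 rows (5.26%), higher in Müller glia in 468 (3.78%) and lower in 184 (1.48%). Both comparisons use the same sums of Müller glia. Of the 67 glia-high rows, 21 had a higher and 1 a lower slope in Müller glia, with a median difference over the 13 days of 1.47 on the log2 scale against 0.05 over all rows. Bipolar cells were also part of the choice of the glia-high rows, so this is a description and no test. Without P21, 265 rows differed and 8 glia-high rows had a higher slope. Among the 170 rows that rose with age in Müller glia, 72 also had a higher slope than in both neuron classes, 4 of them glia-high. The 170 rows were chosen by their slope in the same sums, so this count is a description and no test. Over all rows tested, the slope was higher in 2.56% against amacrine cells and 3.78% against bipolar cells. The share over all rows for both comparisons together was not counted.

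Among called rows with a mean of at least 20 CPM in Müller glia, row 9374 again had the steepest difference. It was 1.03 (SE 0.11) log2 units per day (edgeR adjusted p = 4.89e-07), with 0 to 4.76 CPM in bipolar cells. Row 566 was at 0, 15.2, 31.8, 47.2 and 55.8 CPM in Müller glia from P8a to P21 and at 0 to 0.960 CPM in bipolar cells, so that Müller glia lay above bipolar cells from P12 on. Bipolar cells had 0, 3, 6, 0 and 0 UMIs of this row, and in Müller glia alone its slope was 0.20 (edgeR adjusted p = 0.170), so that the difference of slopes rests on bipolar counts near 0 and does not show a change in Müller glia. That difference, 0.85 (SE 0.22, adjusted p = 0.0228), lost the call without P12a, P17 or P21 (adjusted p = 0.0575 to 0.159). Row 12818 was at 18.0, 57.9, 31.8, 23.3 and 6.97 CPM in Müller glia and at 2.90, 19.5, 12.3, 37.1 and 62.7 CPM in bipolar cells, with a difference of -0.45 (SE 0.05, adjusted p = 4.20e-07), although it had only 5 UMIs in Müller glia at P8a and 3 at P21 and its slope in Müller glia alone, -0.13, did not pass the test (adjusted p = 0.469). Row 22020 was at 1.81 to 11.6 CPM in bipolar cells, and its difference of -0.48 (SE 0.11, adjusted p = 0.00966) was -0.13 without P8a (adjusted p = 0.796). Its slope in Müller glia alone was not tested.

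The embryonic libraries, which hold no Müller glia and were not used to choose the glia-high rows, show what these rows did in primary progenitors before glia were annotated. Progenitors, early-stage and late-stage together, were summed in each of the 7 libraries from E18 to E26 and tested against embryonic day (edgeR quasi-likelihood test). Of 15918 rows, 2200 (13.8%) changed: 1132 rose (7.11%) and 1068 fell (6.71%). Of the 67 glia-high rows, 66 passed the filter, 28 rose and 7 fell, and the median change over the 8 days was 0.61 on the log2 scale against 0.00 over all rows. Rows of the neuron classes also rose often: 11 of 17 cone rows that passed the filter, 5 of 9 amacrine rows, 13 of 30 ganglion cell rows and 1 of 4 bipolar rows. Without E18, the only library of its age, 669 rows changed, and 17 glia-high rows rose and 6 fell. Leaving out each other library in turn left between 1316 rows (without E26a) and 2762 rows (without E21b), with 23 to 31 glia-high rows that rose, and without E26b 1451 rows changed.

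Called glia-high rows with a mean of at least 20 CPM over the embryonic libraries and time point means moving one way were ranked by slope. Those that rose most were close to silent at E18. Over all 66 glia-high rows tested, the fitted change over the 8 days ranged from -1.91 to 9.10 on the log2 scale. Row 24159 was at 0.933 CPM at E18, 12.9 and 8.81 CPM at E21, 30.6 and 26.8 CPM at E24 and 50.3 and 48.3 CPM at E26, which is 4.70 (SE 0.54) on the log2 scale over the 8 days (edgeR adjusted p = 0.000413). Row 24105 went from 4.85 CPM at E18 through 27.8 and 19.6 CPM at E21 and 72.1 and 55.8 CPM at E24 to 89.0 and 70.1 CPM at E26, a change of 3.76 (SE 0.43, adjusted p = 0.000421). In both rows each library of a later age lay above those of the earlier ages, apart from the E24 and E26 libraries of row 24105, which overlapped. Müller glia held a mean of 227 CPM of row 24159 and 1066 CPM of row 24105. Row 2712, the leading glia-high row, was at 10.4 CPM in early-stage progenitors at E18 and 81.7 and 77.3 CPM at E26, and its rise over the 8 days was 2.24 (SE 0.53, adjusted p = 0.0183). The size of this rise rested on E18: the slope was 0.28 log2 units per day with E18 and 0.12 without it (adjusted p = 0.0415). Row 18178 stayed between 0.404 and 3.86 CPM in early-stage progenitors before birth and was at 1.52 CPM in late-stage primary progenitors at P4 (slope over 8 days -1.56, SE 0.88, adjusted p = 0.279).

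Other glia-high rows were already high at E18 and fell before birth. Row 17997 went from 281 CPM at E18 through 146 and 168 CPM at E21 and 122 and 131 CPM at E24 to 100.3 and 95.3 CPM at E26 (-1.39 on the log2 scale over 8 days, SE 0.16, edgeR adjusted p = 0.000389), and its mean in Müller glia was 255 CPM. Row 7120 went from 288 CPM at E18 to 125 and 143 CPM at E26 (-1.19, SE 0.17, adjusted p = 0.00149), and its mean in Müller glia was 993 CPM. In both rows the E18 library lay above the 6 later ones. With the postnatal libraries P4 and P8b added, row 7120 no longer passed the test (adjusted p = 0.675).

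**Figure D5:**
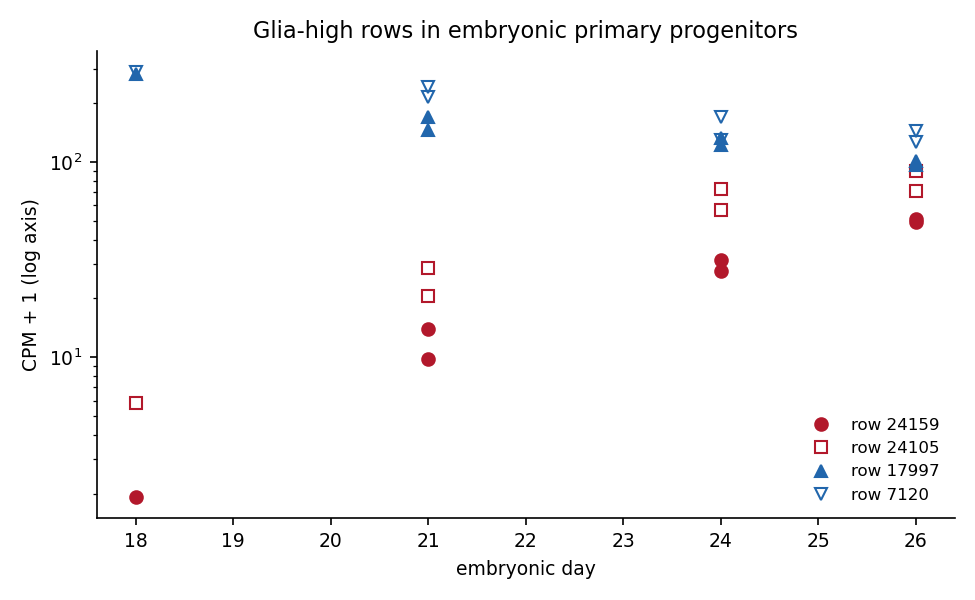
CPM + 1 on a log axis in embryonic primary progenitors against embryonic day, with 1 point per library. Shown are the glia-high rows with the largest rises (24159 and 24105) and falls (17997 and 7120). They were picked among called rows with a mean of at least 20 CPM and time point means moving one way. Row 24159 went from 0.933 CPM at E18 to 50.3 and 48.3 CPM at E26, and row 17997 from 281 CPM to 100.3 and 95.3 CPM.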

How the data were processed

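The authors deposited UMI counts per gene and cell, whole numbers that are not normalized, made per the study's methods with CellRanger 3.1.0 on the HiC_Itri_2 assembly (the labels' processing notes name GRCm38, Cell Ranger 3.1.0 and Seurat 4.0.4). They named cell types cluster by cluster in Seurat. Filters on cells, doublet removal and subsampling by the aggregation step are not stated for these files, and no doublet caller was run. The deposited list of 30265 gene names was not used, since it carries no row numbers and the matrix has 34181 rows.

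A library was a time point and a cell name suffix. P1 had 2 suffixes and 1 sample, so its 6920 cells are not analysed here. The letters a and b name libraries and do not follow the labels' replicate numbers. Nothing says that libraries of a time point came from separate animals, so the spread between libraries may be technical. The p-values of the fits against age measure scatter around a straight line on the log scale. In Müller glia only P12 had 2 libraries. There, departures of single-library ages from the line cannot be told apart from the spread between libraries.

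UMI counts were summed per library and cell type (at least 10 cells; Müller glia sums held 284565 to 1582940 UMIs) and tested with edgeR 4.0.16 in R 4.3.3 (filterByExpr, TMM scaling, glmQLFit, glmQLFTest; Benjamini-Hochberg over all rows). The SE is the size of the slope divided by the square root of F. CPM of tested rows use TMM-scaled sums. The fits were also run on simulated counts with 1 mean level per row and no class differences. No result given here rests on that run. The rows named by slope were the 2 with the largest and the 2 with the smallest slope past adjusted p 0.05. They had a mean of at least 20 CPM in Müller glia. In progenitors that mean was taken over the embryonic libraries, and only glia-high rows were ranked. Against age, in Müller glia and in progenitors, only rows whose time point means moved one way were ranked. The leading glia-high rows were named by their lowest library. The members and lists were chosen with earlier results of these data known. Alternatives were DESeq2 1.42.0, its size factors, no filter, thinned sums, cells at or under 2 times the median UMIs only, and leaving out each library.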

Additional observations from a re-analysis of the deposited data

Results flagged for a closer look

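The 8 differences of age slope of the named rows were set apart because the test of the difference itself passed its threshold. In log2 units per day, Müller glia minus amacrine cells, they were 1.12 for row 9374, 0.63 for row 28988, -0.60 for row 25907 and -0.57 for row 22020. Müller glia minus bipolar cells, they were 1.03 for row 9374, 0.85 for row 566, -0.48 for row 22020 and -0.45 for row 12818. Rows 28988, 25907 and 12818 passed the test without each of the 5 libraries in turn. The call of row 22020 was lost without P8a in both comparisons and with DESeq2 (adjusted p = 0.0528 against amacrine and 0.0861 against bipolar cells), that of row 9374 against amacrine cells was lost without P21 and against bipolar cells with DESeq2 (adjusted p = 0.257), and that of row 566 was lost without P12a, P17 or P21 and without cells over 2 times the median UMIs (adjusted p = 0.100). Row 566 had only 0 to 6 UMIs per library in bipolar cells and a slope of 0.20 in Müller glia alone (edgeR adjusted p = 0.170), so its difference rests on a bipolar slope fitted to counts near 0. Row 22020 did not pass the filter on low counts in Müller glia alone, so its slope there was not tested. No time point had more than 2 libraries, so no library could be tested as an outlier of its group.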

How the results depend on the processing

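No paired analysis was possible because the cell names carry library suffixes and not the replicate numbers of the labels; this concerns replicate numbers only, since classes of the same library were compared within libraries. Of 72 repeats of the summary values under other settings, 50 stayed on their side of the threshold or, for counts, within 1.5 times the main value; the repeats of UMIs per cell are not counted, since 5 or 4 libraries cannot reach a p under 0.05. In Müller glia against age, 570 rows were called without the filter, 0 for P12 against P17 and P21, and 62 to 191 with a library left out. Against amacrine cells DESeq2 called 243 rows, thinned sums 136, and fits without a library 275 to 641. Against bipolar cells these were 278, 207 and 265 to 675. In progenitors, fits without a library called 669 to 2762 rows. The share of Müller glia among both types had rho of 0.63 and r of 0.54 over all cells, and 0.95 and 0.90 without P4 and P21, a repeat set together with the test. The repeat without P4 and P21 could not reach an adjusted p under 0.05 and is counted among the 72. In genes in place of UMIs, the log2 ratio of Müller glia to cones was -0.0725, against 0.07. The glia-high rows numbered 17 with a pseudocount of 50 CPM, 223 at a threshold of 1, and 69 to 97 with a library left out. With 500 rows, 96.0% of Müller glia were nearest their own type, but only 199 of 482 late-stage primary progenitors (41.3%) were, and 249 of these were nearest Müller glia. The causes of these shifts were not tested, beyond fewer rows, cells or libraries where the setting itself brings them. Depth limits the sums of P8a and P21, the smallest of Müller glia.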
